A study of Mus musculus with 4 samples.

Results

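The differentiation of AKAP95 knockdown embryonic stem (ES) cells by retinoic acid (RA) was measured on a pair of Illumina bead arrays, 1 of undifferentiated and 1 of RA-differentiated cells. A probe was taken into the comparison if its detection p-value, the scanner software's own test of the signal against negative control beads, was under 0.01 on at least 1 of these arrays. This kept 12831 of the 25697 probes, which stood for 9537 of the 17876 genes on the array. The cells were mouse E14 ES cells stably infected with a virus that expresses an shRNA that targets AKAP95, which the gene Akap8 encodes. The cells were grown with the cytokine LIF on plates coated with 0.1% gelatin. For differentiation, LIF was left out for 4 days, and the monolayer was then given 1 µM all-trans RA for 4 more days. A pair of arrays of cells with a scramble shRNA, one undifferentiated and the other treated in the same way, is set beside them, so that all 4 groups carried a virus and an shRNA. The labels call the infected cells stable and name no clone, and they give neither the sequence nor the number of the shRNAs against AKAP95. Each group was 1 array, so that the spread between replicates is unknown, no test was made, and sizes alone are given. RA, the loss of LIF and the time in culture go together in this design and cannot be told apart. In a mixed culture, fewer cells of a type and less RNA per cell cannot be told apart either.

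RA is a vitamin A derivative that enters cells, is carried by small binding proteins and acts through the nuclear receptors RAR and RXR, which bind DNA as pairs and turn on nearby genes. Among its best-known direct targets are the Hox genes, which set position along the body axis, and the genes for its own receptor and its own breakdown. In ES cells RA drives the loss of the pluripotent state and the entry into neural and other fates. AKAP95 is a nuclear anchoring protein for protein kinase A that also associates with MLL histone methyltransferase complexes, and the study asked how these proteins regulate transcription.

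Of the 25697 probes, the undifferentiated knockdown array detected 11344 (44.1%) and the RA-treated one 12156 (47.3%). Both arrays detected 10669 probes, the RA-treated array alone 1487 and the undifferentiated array alone 675. The 72 probes just inside the threshold, at a lower detection p of 0.00877, and the 24 just outside it were pooled over both arrays. The higher of each probe's 2 signals lay between 84.8 and 88.4 in both sets. With the arrays pooled, this does not show an overlap within 1 array. Each gene was read from its kept probe with the highest mean over all 4 arrays, and 8004 genes were then detected on both arrays, 1073 after RA alone and 460 before RA alone. Signals are the deposited linear intensities and are given in the order undifferentiated, then RA-treated. Differences are log2 values, RA-treated minus undifferentiated, after background correction and quantile normalization. Where a gene was not detected on 1 side, that side was raised to the lowest detected value of its array, and the difference is a bound, written as "at least" or "a bound". A bound holds for this background correction and normalization alone, and a smaller value is possible under another. In 1988 genes with at least 2 probes detected on both arrays, the differences of the 2 brightest probes lay a median of 0.22 apart and under 0.93 in 95% of those genes. This is a spread between probes, not between cultures.

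The targeted gene was lower on the knockdown arrays. Akap8 had signals of 139 and 199.7 in knockdown cells and of 272 and 297 in scramble cells, so that both knockdown values lay below both scramble values. Within the knockdown cells Akap8 differed by 0.20 with RA, less than the median spread between probes. Its paralog Akap8l had signals of 391 and 750.3 and was higher by 0.69, the same size as in scramble cells (0.69). The undifferentiated knockdown array carried the markers of E14 ES cells, with signals of 10841 for Nanog, 8359 for Dppa4, 7710 for Esrrb, 7263 for Pou5f1, 5459 for Zfp42 and 624 for Sox2.

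Of the 9537 genes, 1179 (12.4%) passed 2-fold upward after RA and 935 (9.80%) downward, and the median difference over all genes was -0.02. Quantile normalization gives the arrays the same distribution of signals and so largely holds this median near 0. With the deposited ratios it was 0.11. The number of genes past 4-fold was 266 higher and 230 lower, and past 16-fold it was 21 and 16. Of the genes detected on both arrays, 905 were higher (11.3%) and 781 lower (9.76%). Those detected after RA alone could hardly be lower, and 274 of them were higher (25.5%). Likewise 154 of those detected before RA alone were lower (33.5%). These shares are the background against which each count of members below is to be read.

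**Figure D1:**
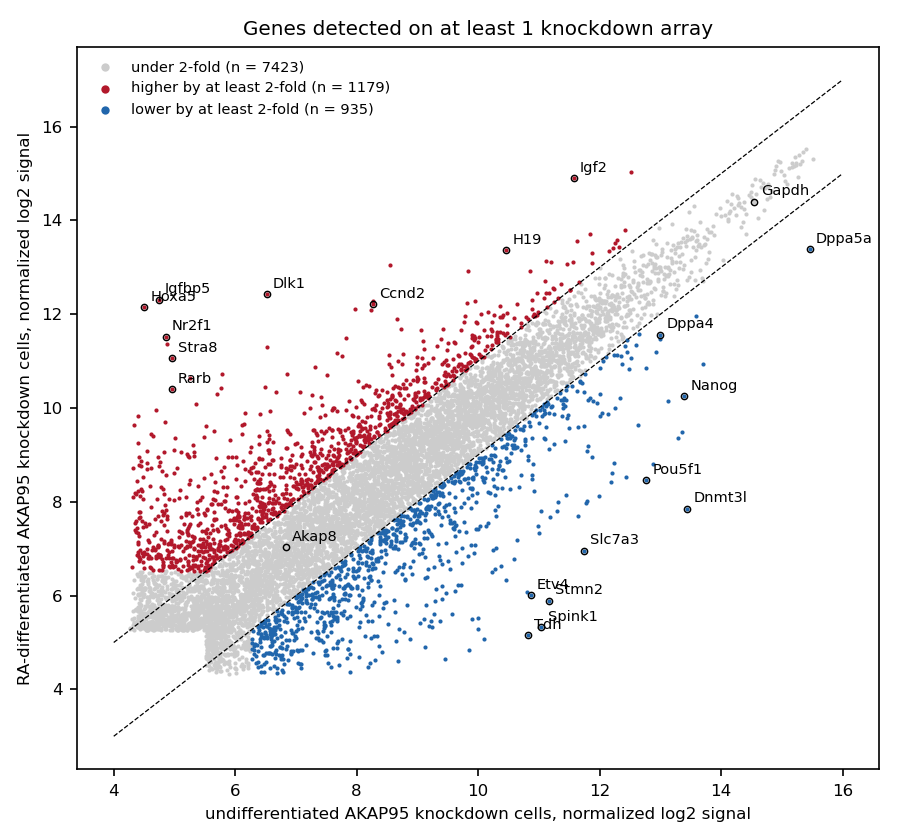
Normalized log2 signal of the 9537 kept genes in undifferentiated (horizontal) and RA-differentiated (vertical) AKAP95 knockdown cells, 1 array each, before any bound is set, with dashed lines at 2-fold and named genes circled. The 1179 red genes lie above and the 935 blue genes below, and Igfbp5, Hoxa5 and Nr2f1 stand at the upper left with no detected signal before RA.

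The largest increases joined growth factor binding, patterning and imprinted genes. Igfbp5, which binds insulin-like growth factors, went from a signal of 67.8 to 4875 (at least 111-fold), and Hoxa5 from 60.9 to 4419 (at least 98.8-fold). The orphan nuclear receptor gene Nr2f1 had 70.4 and 2933 (at least 64.2-fold) and the imprinted Dlk1, which encodes a Notch-like membrane protein, had 121 and 5225 (59.8-fold). In the first 3 of these 4 genes the undifferentiated array gave no detected signal, so that the increase starts from background. Next came genes with other roles. Ifi27, an interferon-induced gene, was 25.1-fold higher and Ctsj, a cathepsin of the placenta, 24.2-fold. Nrep, which encodes a small neuronal protein, was 22.5-fold higher at signals of 373 and 7857. Cldn11, a tight junction gene, was at least 18-fold higher, the arginase gene Arg1 at least 17.2-fold and the X-linked calpain family gene Capn6 at least 17-fold. Ccnd2, which encodes cyclin D2, had 307 and 4616 (15.5-fold). The cell surface genes Igdcc3 (16-fold) and Nrp1, a receptor for semaphorins and VEGF (at least 14.3-fold), and the matrix gene Ecm1 (14.5-fold) were also among the 30 largest increases. Ecm1 (0.37 to 3.86) had other kept probes under 2-fold, and the range over probes is given in brackets.

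The largest decreases were of genes bright in ES cells. Dnmt3l, which helps to place new DNA methylation, had signals of 11264 and 311, and Spink1, a trypsin inhibitor gene, 2077 and 90.7. Tdh, which encodes threonine dehydrogenase, had 1753 before RA and was not detected after it (at least 46.8-fold lower). Stmn2, a regulator of neuronal microtubules, went from 2290.5 to 115 (38.7-fold lower). Behind these stood regulators of the early embryo. The bHLH factor gene Tcf15 was 26.4-fold lower, Tcl1, a co-activator of the kinase Akt, 22.3-fold, and the maternal-effect gene Khdc3 21.2-fold. Eras, an X-linked Ras gene of ES cells, was 15-fold lower and the zinc finger gene Zfp296 15-fold. Genes of other roles were among them too. The keratin gene Krt42 was at least 23.9-fold lower, the kinase gene Sgk1 15.3-fold, the hormone gene Trh 14.6-fold and the phospholipase gene Pla2g1b 14.1-fold. Laptm5, which encodes a lysosomal membrane protein, was 13.9-fold lower with signals of 3503 and 336. 

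Of the genes that receive, carry and break down RA, 13 of 19 on the array were kept, 7 of them higher past 2-fold and 2 lower (median 2.08). Detection after RA alone accounts for 7 of those kept, and the 6 detected on both arrays had a median of 0.32. The receptor genes went different ways. Rarb was not detected before RA and had 1480.4 after it (at least 29.6-fold higher), whereas Rarg had 303 and 140.3 (3.76-fold lower) and Rxra 306 and 167 (2.96-fold lower). Rxrb differed by 0.20. Among the binding proteins, Crabp2, which delivers RA to its receptors, had 89.5 and 383 (5.73-fold higher). Crabp1 was under 2-fold (0.43). Stra6, the membrane receptor for the retinol carrier, was at least 8.30-fold higher. Of the enzymes, Aldh1a1, which makes RA, was at least 4.79-fold higher, and Cyp26a1 and Cyp26b1, which break it down, were at least 4.23-fold and at least 4.85-fold higher. The mouse gene Aldh1a7, a relative of Aldh1a1, was at least 15.2-fold higher. Rxra was below 2-fold under at least 1 other setting. Rarb (-0.11 to 4.89) had other kept probes under 2-fold, and the range over probes is given in brackets.

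The promoters of Rarb and Cyp26a1 are shown because they hold the arrangement to which RAR and RXR are known to bind. It is called DR5, a direct repeat of 2 half-sites with 5 bases between them. Each half-site could be AGGTCA, or GGGTCA, or else AGTTCA, or lastly GGTTCA, and both strands were searched in the 250 bases before and 50 after each start site. The sequences are from RefSeq, build GRCm38.p6, 5′ to 3′ on the gene's strand, with the DR5 in capitals. Rarb lies at chr14:16575427-16575726 on the minus strand and Cyp26a1 at chr19:37697558-37697857 on the plus strand.
Rarb: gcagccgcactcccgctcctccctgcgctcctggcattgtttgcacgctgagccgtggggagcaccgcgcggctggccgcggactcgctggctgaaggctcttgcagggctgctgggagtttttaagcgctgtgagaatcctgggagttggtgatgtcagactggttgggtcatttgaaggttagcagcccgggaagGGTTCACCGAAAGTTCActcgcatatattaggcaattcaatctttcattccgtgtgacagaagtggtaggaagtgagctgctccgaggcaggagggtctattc
Cyp26a1: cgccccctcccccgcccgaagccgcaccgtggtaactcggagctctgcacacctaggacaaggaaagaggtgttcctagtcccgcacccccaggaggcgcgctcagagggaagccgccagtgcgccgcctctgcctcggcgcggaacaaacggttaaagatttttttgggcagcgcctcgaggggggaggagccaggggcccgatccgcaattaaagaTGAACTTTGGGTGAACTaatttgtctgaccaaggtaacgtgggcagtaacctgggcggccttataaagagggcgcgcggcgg
The repeat ends 36 bases before the start site in Rarb and 15 bases before it in Cyp26a1, where it runs on the opposite strand. A DR5 was found in 32 of all 32851 promoters of the table (0.0974%). Promoters were at hand for 7553 of the 9537 kept genes (79.2%), which is under the 80% set as a minimum, so sets of genes were not compared. Of these 9724 promoters 3 held a DR5, those of Rarb, Cyp26a1 and Blvrb, a biliverdin reductase gene that differed by -0.07 with RA. A match of letters is a description and no evidence of binding, and a window without one says nothing about RA.

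Genes known to be induced by RA had 16 members kept of 19, with 11 higher, 0 lower and a median of 1.97. Of the 8 detected on both arrays, 6 were higher. The Hox cofactor genes Meis1 and Meis2 had 257 and 4287 and 300.5 and 4228 (17.5-fold and 14.5-fold higher). Stra8, which starts meiosis in germ cells, had 72.6 and 2188 (at least 46.5-fold), and the same probe gave 93.5 and 493 in scramble cells. The size was 5.54, a bound, in the knockdown and 2.89 in scramble cells, while Meis1 (5.17), Meis2 (4.76) and Nr2f1 (6.97) had larger values in scramble cells. Nr2f2, the relative of Nr2f1, was at least 11.8-fold higher, Wt1, a kidney and gonad factor, 8.04-fold, the forkhead gene Foxa1 7.59-fold and the transglutaminase gene Tgm2 3.09-fold. Cdx1, known as an RA target in the embryo, had 101 and 110.2 (-0.25), and Egr2 and Cdx4 were detected on neither array. Nr2f2 (0.55 to 3.56) had other kept probes under 2-fold, and the range over probes is given in brackets.

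Of the 39 Hox genes, all on the array, 23 were kept and 16 were detected on neither knockdown array. Only 4 of the 23 were detected on both arrays, 18 after RA alone and 1 before it, so that most increases begin at background. Of the 23, 16 were past 2-fold upward and 0 downward (median 2.72). Over the 4 detected on both arrays 2 were past 2-fold upward and the median was 0.85. The brightest after RA lay at the 3′ and middle parts of clusters A and B. Hoxa5 reached 4419, Hoxb5 2622, Hoxb2 1703, Hoxa4 1236, Hoxb4 1128 and Hoxb1 1045, from undetected signals between 56.9 and 81.0. Hoxd8 was detected before RA too (91.3 and 255, 3.28-fold higher). In cluster C, Hoxc6 reached 794 (at least 14.7-fold) and Hoxc9 213 (at least 3.08-fold), and in cluster D, Hoxd4 reached 395 (at least 6.72-fold). Of the 5′ genes, Hoxa13 had 90.1 and 103 and Hoxc10 86.8 and 101, and Hoxa9, Hoxa10, Hoxa11, Hoxb13, Hoxc11, Hoxc12, Hoxd10, Hoxd11, Hoxd12 and Hoxd13 were detected on neither array. Hoxd3 had 59.4 and 129 (0.63, a bound) beside a bound of 3.79 in scramble cells, where Hoxb1 was at 3.43 against 4.31 in the knockdown. Hoxc9 was below 2-fold under at least 1 other setting.

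**Figure D2:**
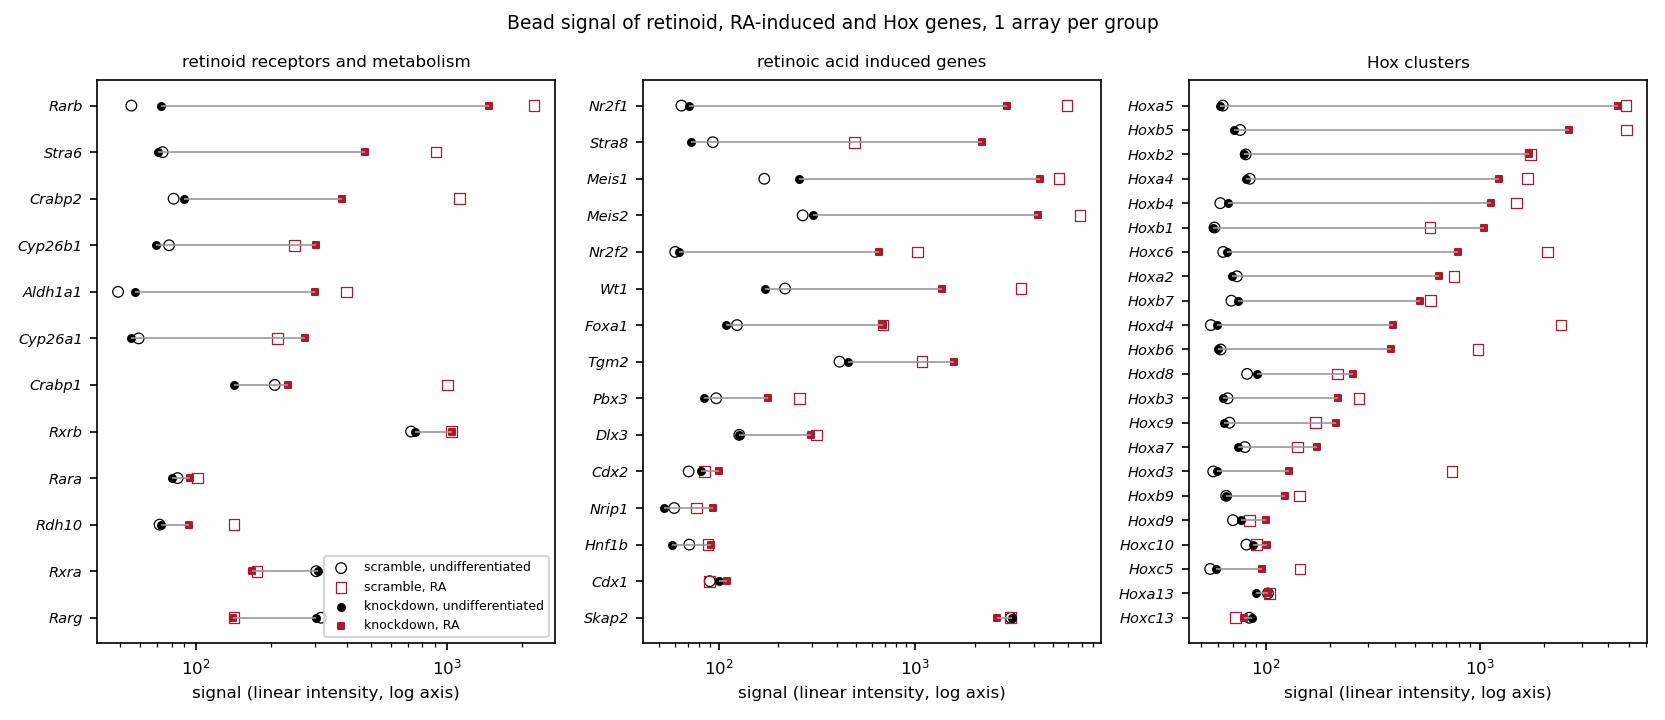
Bead signal, as linear intensity on a log axis, of kept genes of retinoid handling, RA induction and the Hox clusters, with filled marks for the knockdown arrays joined by a line and open marks for the scramble arrays (circles undifferentiated, squares RA). The line runs to the right in Rarb, Nr2f1 and Hoxa5 and to the left in Rarg and Rxra, and the open square of Stra8 lies left of the filled square.

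All 13 core pluripotency genes kept were past 2-fold downward (median -3.31), and 12 of them were still detected after RA. Pou5f1, which encodes Oct4, had 7263 and 443 (19.8-fold lower), and Nanog 10841 and 1348 (8.83-fold). Sox2, which neural progenitors also use, had 624 and 174 (6.09-fold). Tdgf1, a co-receptor for Nodal, was at least 28.5-fold lower, the chromatin factor gene Utf1 26.5-fold and the RNA-binding gene L1td1 12.7-fold. The smallest decreases were in Dppa5a, Dppa4 and Sall4, and signal remained in each. Dppa5a had 41489 and 9725 (4.19-fold lower), Dppa4 8359 and 3016 (2.70-fold) and Sall4, a zinc finger factor gene, 5840.2 and 2198 (2.74-fold). In scramble cells the same 3 genes differed by -4.01, -3.74 and -1.89, against -2.07, -1.43 and -1.45 here. Dppa4 (-1.73 to -0.70) had other kept probes under 2-fold, and the range over probes is given in brackets.

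Naive-state genes, which mark the ground state of ES cells, had 14 members kept of 17, and 13 were lower (median -2.70). Esrrb had 7709.9 and 550.3 (16.9-fold lower), Zfp42 5459 and 461 (15-fold), Klf4 2330.1 and 284 (11.4-fold) and Tbx3 856 and 181 (7.93-fold). Klf2 and Klf5 were lower by less, 4.33-fold and 3.78-fold. Dppa3, a gene of oocytes, naive cells and germ cells, was the kept member under 2-fold, at 283 and 266 (-0.59), where scramble cells had 242 and 89.9 (-2.45). Of 7 genes that mark rare cells like the 2-cell embryo, 6 were lower, with Zscan4c at 4666 and 484 (12-fold), Tcstv1 at 2778 and 368 (9.83-fold) and Tcstv3 at 2528 and 303 (11.4-fold). Of the 7, 4 were detected before RA alone, and these could hardly be higher. All 3 detected on both arrays were lower. The primed epiblast list was split, with 3 higher and 5 lower of 9. Otx2 (5.84-fold) and the de novo methyltransferase gene Dnmt3b (3.35-fold) were lower, and the epithelial genes Cldn6 (7.81-fold) and Krt18 (4.04-fold) and the zinc finger gene Sall2 (5.55-fold) higher. Fgf5, the classic epiblast gene, had 60.1 and 139 (0.80, a bound). Tbx3 (-3.08 to -0.79) had other kept probes under 2-fold, and the range over probes is given in brackets.

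The promoter of Zfp42, long used as a reporter of the undifferentiated state, is shown because it holds the octamer to which Oct4 is known to bind, while both genes were lower after RA. It lies at chr8:43306960-43307259 on the minus strand (RefSeq, GRCm38.p6). The octamer, searched as ATGCAAAT on both strands, is in capitals, runs on the opposite strand and ends 178 bases before the start site.
Zfp42: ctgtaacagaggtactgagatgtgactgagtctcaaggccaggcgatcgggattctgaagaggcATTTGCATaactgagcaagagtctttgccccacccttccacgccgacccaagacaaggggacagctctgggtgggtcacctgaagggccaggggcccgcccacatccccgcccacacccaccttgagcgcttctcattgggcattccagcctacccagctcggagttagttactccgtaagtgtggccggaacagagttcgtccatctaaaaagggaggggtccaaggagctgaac
The same octamer was found in 570 of 32851 promoters (1.74%), and its presence here is a description.

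**Figure D3:**
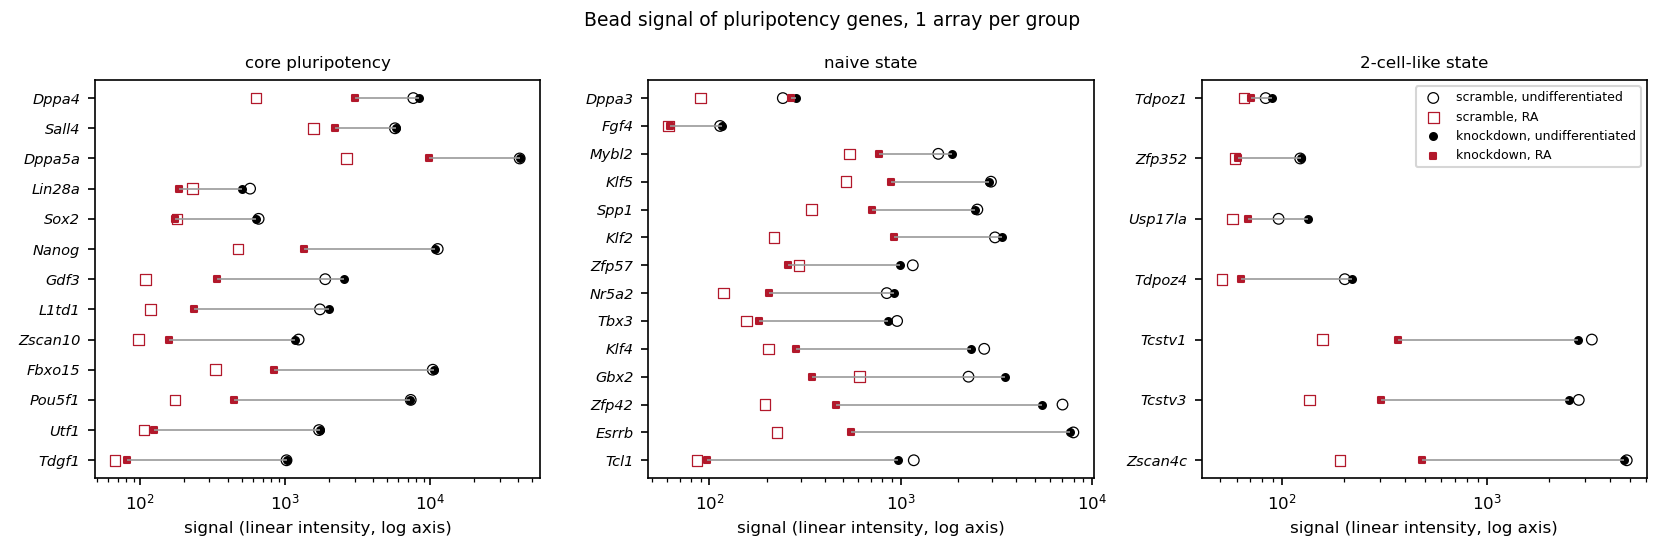
Bead signal, as linear intensity on a log axis, of kept genes of core pluripotency, the naive state and the 2-cell-like state, with filled marks for the knockdown arrays joined by a line and open marks for the scramble arrays (circles undifferentiated, squares RA). Filled and open circles nearly coincide for most genes, and for Dppa4, Dppa5a and Nanog the filled square lies to the right of the open square.

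Of the pathways that hold ES cells undifferentiated, LIF signalling was represented by 15 genes, 1 higher and 6 lower (median -0.40). The feedback inhibitor gene Socs3 had 2058 and 304 (9.35-fold lower), whereas the signal transducers Stat3 (-0.33), Il6st (-0.11) and Jak1 (-0.01) were under 2-fold. Lifr, the receptor gene, had 116 and 85.4 (-1.15, a bound). In the FGF pathway 1 of 18 was higher and 9 lower, against 5 lower and 2 higher of 18 in scramble cells, each over its own kept members. Of the 18 in the knockdown, 5 were detected before RA alone, and these could hardly be higher, and 3 after RA alone. The 10 detected on both arrays had 0 higher and 4 lower (median -0.34). The ligand gene Fgf17 was at least 18.3-fold lower, and the ETS factor genes Etv4 and Etv5, both induced by FGF signals, had 1817 and 121 and 532 and 97.0 (29-fold and 12.2-fold lower). The inhibitor gene Spry4 was at least 4.28-fold lower, but Dusp6, another target, differed by -0.04 at 2332 and 2310.0. Fgf15, Fgf10 and Dusp4 were lower by at least 3.38-fold, at least 2.64-fold and 2.09-fold in knockdown cells, and differed by 0.11, 0.22 and 0.14 in scramble cells. The receptor gene Fgfr2 was at least 2.70-fold higher. Lifr, Fgf15, Fgf10, Dusp4 and Fgfr2 were below 2-fold under at least 1 other setting. Lifr (-1.15 to -0.50), Fgf17 (-4.19 to -0.72) and Dusp4 (-1.06 to -0.97) had other kept probes under 2-fold, and the range over probes is given in brackets.

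The Nodal and activin list had 4 higher and 5 lower of 13. The ligand gene Nodal had 433 and 141 (5.50-fold lower), Gdf3, a related ligand, 2546 and 340.5 (9.93-fold) and the activin subunit gene Inhbb was at least 8.20-fold lower. The Nodal inhibitors held more of their signal. Lefty1 had 611 and 480.4 (-0.74) and Lefty2 495 and 287 (-1.32), where scramble cells had -3.93 and -3.89. The receptor gene Acvr2b was 2.61-fold higher and the signal transducer gene Smad3 2.58-fold. Lefty2 and Smad3 were below 2-fold under at least 1 other setting.

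Wnt genes had 11 higher and 3 lower of 23. Of the 23, 7 were detected after RA alone, and these could hardly be lower, and 1 before RA alone. The 15 detected on both arrays had 5 higher and 3 lower (median 0.43). The ligand gene Wnt5a had 79.7 and 699.9 (at least 12.9-fold higher) and the receptor gene Fzd2 84.1 and 789 (at least 14.6-fold), Rspo3, which boosts Wnt signals, was at least 4.36-fold higher, and the secreted modulators Dkk3 and Sfrp1 5.95-fold and 2.44-fold. Fzd5, another Wnt receptor gene, had 1842 and 474 (4.97-fold lower). Readouts of the pathway did not move together: Axin2 was 2.02-fold higher (268 and 643) and Sp5 2.04-fold lower (192 and 147). BMP genes had 7 higher and 1 lower of 16 (median 0.97). The ligand genes Bmp7 (3.77-fold) and Bmpr1b, a receptor gene (3.53-fold), were higher with Id2, a target (3.06-fold), and Bmp4 had 1151 and 564 (2.66-fold lower). Bmp4 differed by -0.08 in scramble cells. Axin2 and Sp5 were below 2-fold under at least 1 other setting. Wnt5a (0.56 to 3.69) had other kept probes under 2-fold, and the range over probes is given in brackets.

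Of 10 Notch pathway genes, all detected on both arrays, 3 were higher and 1 lower. The target gene Hey1 had 147 and 533 (3.54-fold higher), the receptor genes Notch3 and Notch1 were 2.43-fold and 2.17-fold higher, and Mfng, which modifies the receptors, was 3.64-fold lower. The ligand gene Dll1 had 102 and 92.5 (-0.73). Hedgehog signalling had 6 genes kept, with the ligand gene Shh at 55.7 and 250.1 (at least 3.80-fold higher) and the transducer Smo at 234 and 871 (3.32-fold higher), while its targets Gli1 and Ptch1 were detected on neither array. Notch1 was below 2-fold under at least 1 other setting. Shh (0.31 to 1.93) had other kept probes under 2-fold, and the range over probes is given in brackets.

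Of 25 neural progenitor genes on the array, 11 were kept, 3 were higher and 2 lower, and Sox1, Pax3, Pax6, Olig2 and Neurog2 were detected on neither array. Of the 11, 6 were detected after RA alone, and these could hardly be lower. The 5 detected on both arrays had 2 higher and 2 lower (median -0.84). Irx3, a homeobox gene of the neural tube, had 96.9 and 603 (8.0-fold higher), the filament gene Nes 151 and 432 (2.66-fold) and Dbx1 58.2 and 176 (at least 2.41-fold). En2 was 4.68-fold lower and Gbx2, which ES cells also express, 13.6-fold. In scramble cells Irx3 was at 4.15, Nes at 2.53 and Dbx1 at 4.38, a bound. Dbx1 was below 2-fold under at least 1 other setting. Nes (0.77 to 1.41) had other kept probes under 2-fold, and the range over probes is given in brackets.

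Of 20 kept genes of postmitotic neurons, 3 were higher and 6 lower, against 10 higher and 3 lower of 22 in scramble cells. Of the 20, 7 were detected after RA alone and 3 before it alone. The 10 detected on both arrays had 1 higher and 6 lower (median -1.40). The hormone gene Sst had 57.1 and 281 (at least 4.40-fold higher), the microtubule gene Map2 156 and 424 (2.48-fold) and the motor neuron factor gene Isl1 78.8 and 161 (at least 2.13-fold). Doublecortin (Dcx) had 68.5 and 112 (0.33, a bound), the neurofilament gene Nefm 78.5 and 133 (0.70, a bound) and Lhx1 58.2 and 133 (0.70, a bound), all detected after RA alone, where scramble cells had bounds of 2.76, 4.01 and 3.03. The genes lower after RA had signal in the undifferentiated cells, as a decrease requires. Mapt, which encodes tau, had 786 and 134 (11.1-fold lower), Nefh 434 and 141 (5.48-fold), Ina 406 and 160.2 (4.29-fold) and the growth cone gene Gap43 183 and 116 (2.76-fold). Tubb3, a tubulin gene of neurons, had 89.7 and 82.6 and was not detected after RA. Isl1 and Gap43 were below 2-fold under at least 1 other setting. Mapt (-3.48 to -0.06) had other kept probes under 2-fold, and the range over probes is given in brackets.

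Glial genes had 4 higher and 1 lower of 9, led by Sox9 (50.7 and 358, at least 5.96-fold higher), a factor of glia, neural crest and cartilage, and by the glutamate transporter gene Slc1a3 (467 and 1659, 3.19-fold). Of these 9 genes, 4 were detected after RA alone and 2 before it alone. The 3 detected on both arrays had 1 higher and 1 lower. Gfap, S100b and Aqp4, which define astrocytes, were detected on neither array. Of 9 neural crest genes 6 were higher and 1 lower. Here 4 were detected after RA alone and could hardly be lower, and the 5 detected on both arrays had 3 higher and 1 lower. Tfap2b had 60.2 and 462 (at least 8.05-fold higher), Twist1 118 and 285 (2.34-fold), Msx1 101 and 271 (2.87-fold) and the endothelin receptor gene Ednrb 57.4 and 172 (at least 2.34-fold). For Msx1 and Ednrb the scramble values were 5.21 and 4.39. The neurotrophin receptor gene Ngfr was 4.69-fold lower. Pax3 and Foxd3, which define early crest, were detected on neither array. Twist1, Msx1 and Ednrb were below 2-fold under at least 1 other setting.

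Extraembryonic endoderm genes had 5 higher and 2 lower of 17. The factor gene Gata6 had 149.9 and 712 (4.77-fold higher) and the basement membrane genes Col4a1 and Col4a2 1182 and 2795 and 482 and 1903 (2.25-fold and 3.60-fold). Amn was at least 3.51-fold lower and the apolipoprotein gene Apoe 2.66-fold. Gata4, Afp, Ttr and Apoa1, which define visceral endoderm, were detected on neither array. In definitive endoderm, Foxa1 (7.59-fold) and the simple epithelial keratin genes Krt8 (4.05-fold) and Krt19 (3.68-fold) were the 3 higher of 10, and the transferrin gene Trf was lower (at least 3.20-fold). Gsc, Cer1, Alb and Pdx1 were detected on neither array. Amn, Apoe and Trf were below 2-fold under at least 1 other setting.

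Mesoderm genes had 4 higher and 1 lower of 10. Of the 10, 7 were detected after RA alone, and these could hardly be lower, and 1 before RA alone. The 2 detected on both arrays were 1 higher and 1 lower. The blood and neural factor gene Gata2 had 288 and 1023 (3.12-fold higher) and the forkhead gene Foxc2 53.4 and 267 (at least 4.10-fold), while brachyury (T), Mixl1, Mesp1 and Kdr were detected on neither array. Of 16 heart and muscle genes 2 were higher and 1 lower. The smooth muscle actin gene Acta2 had 928 and 2886 (higher by 1.55 on the log2 scale) and the tropomyosin gene Tpm1 2618 and 5879 (2.43-fold), while the myosin light chain gene Myl4 had 592 and 360.3 (2.25-fold lower). Nkx2-5, Tbx5 and Myod1, which define heart and skeletal muscle, were detected on neither array. Endothelial and blood genes had 1 higher and 3 lower of 7. The lower ones, Pecam1 (425 and 161, 4.47-fold), Tek (229 and 129.8, 3.05-fold) and Eng (253 and 143, 2.98-fold), had signal in the ES cells, and Flt1 was 2.48-fold higher. The globin genes of the list and Ptprc were detected on neither array. Tpm1, Myl4, Tek, Eng and Flt1 were below 2-fold under at least 1 other setting.

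Trophoblast genes had 7 higher and 0 lower of 15, with a median of 0.91. Of the 8 detected on both arrays 4 were higher. The placental cathepsin genes Ctsj and Ctsq had 89.7 and 1396 and 55.4 and 438 (24.2-fold and at least 7.57-fold higher). The placental prolactin genes Prl2b1 and Prl3b1 had 58.8 and 578 and 51.7 and 522 (at least 10.3-fold and at least 9.18-fold). Neither prolactin gene was detected on a scramble array, where Ctsq had 69.4 and 95.9. Gata3 (2.91-fold), Krt7 (4.20-fold) and the gap junction gene Gjb2 (10.1-fold) were higher too, with 2.11, 2.02 and 2.62 in scramble cells. Of the factors that define trophoblast stem cells, Cdx2 had 81.6 and 101 and Eomes 92.5 and 75.8, both under 2-fold, and Elf5 and Hand1 were detected on neither array. 

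Germ line and meiosis genes had 4 higher and 1 lower of 18, against 2 higher and 10 lower of 15 in scramble cells. The 13 detected on both knockdown arrays had 2 higher and 1 lower (median -0.14). Dazl, an RNA-binding protein gene of germ cells, had 847 and 4699 (5.39-fold higher) in knockdown and 955 and 738 (-0.63) in scramble cells. Rec8, a meiotic cohesin gene, had 235 and 2871 (12.8-fold higher), Stra8 is given above, and the dipeptidase gene Dpep3 had 78.3 and 420.3 (at least 7.22-fold). Several genes of the list held their signal. Asz1 had 215 and 449 (0.82), Taf7l 392 and 685 (0.53), Tex11 423 and 507 (-0.09) and Mov10l1 212 and 248 (-0.20). For the same 4 genes the scramble values were -1.72, -1.29, -1.88 and -2.21. Meiotic genes that act after entry, Sycp1, Sycp3 and Dmc1, were detected on neither array, and Ddx4 had 92.2 and 102. Of the X-linked Rhox homeobox genes 2 of 6 were higher, Rhox9 (633 and 2823, 4.22-fold) and Rhox6 (257 and 756, 2.55-fold). Rhox5 had 1565 and 1854 (0.11) where scramble cells had 1929.9 and 351 (-2.81). 

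**Figure D4:**
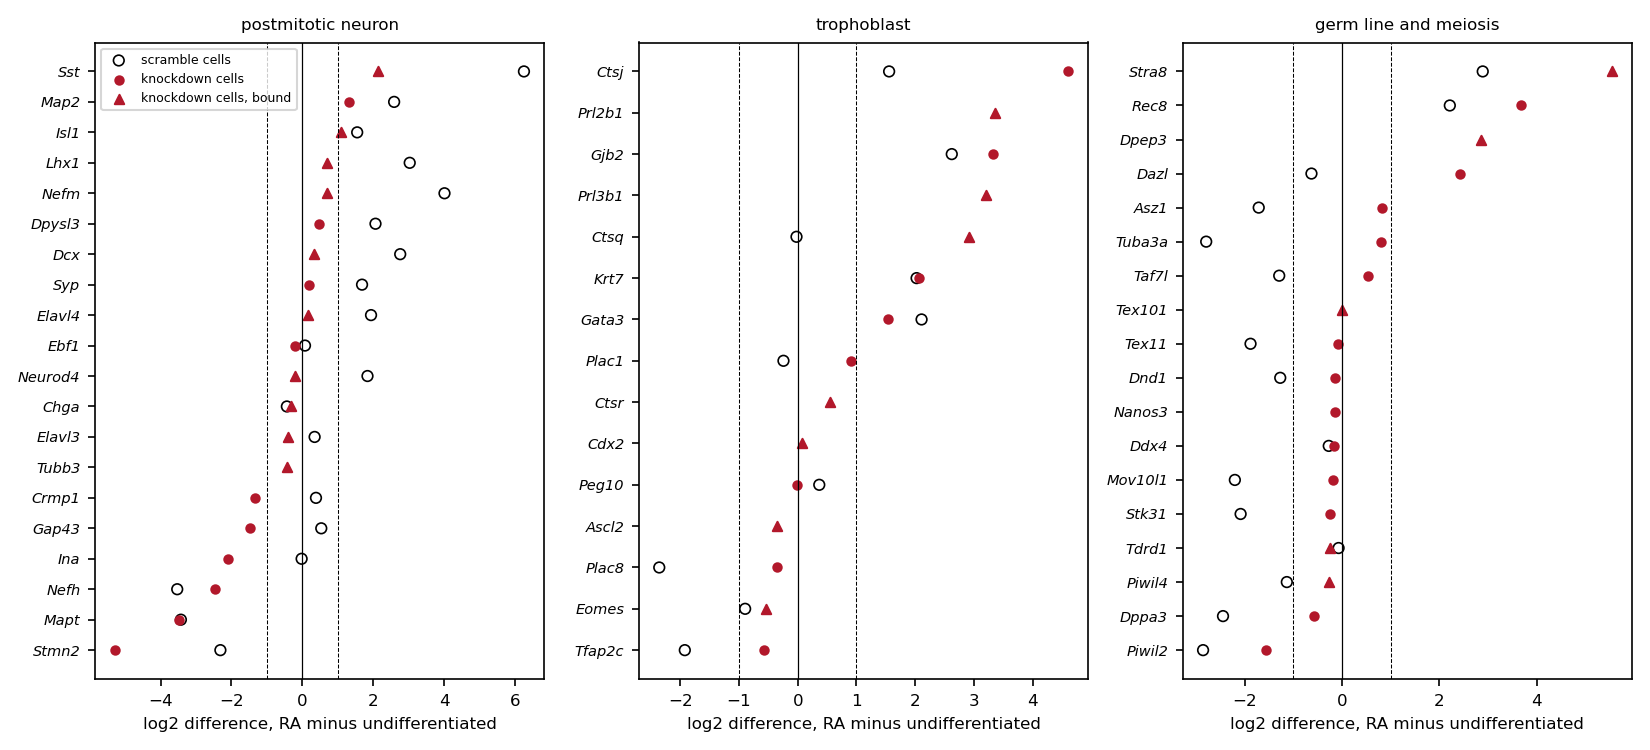
Log2 difference, RA-treated minus undifferentiated, of kept genes of postmitotic neurons, trophoblast, and germ line and meiosis, in red for knockdown cells (triangles are bounds) and as open circles for scramble cells where the gene was detected, with dashed lines at 2-fold. Open circles lie right of the red marks for Sst, Nefm and Dcx and left of them for Ctsj, Dazl and Stra8.

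Of 23 keratin and surface epithelium genes 14 were higher and 2 lower, and of the 17 detected on both arrays 13 were higher and 1 lower (median 2.01). The tight junction genes Cldn3, Cldn4 and Cldn6 had 104 and 935, 926 and 4807 and 413 and 3309 (11.4-fold, 5.07-fold and 7.81-fold higher). Krt8 and Krt18, which pair in simple epithelia, had 2205 and 8319 and 605 and 2574 (4.05-fold and 4.04-fold). The epithelial splicing regulator gene Esrp1 was 5.23-fold higher, its scramble value being 1.43. Krt17 was 6.18-fold lower, and of the basal keratin genes Krt14 had 98.6 and 102 (-0.38) and Krt5 was detected on neither array. 

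Cdh1, which encodes E-cadherin, held its signal at 1569 and 1711 (-0.02), and Cdh2, N-cadherin, was detected on neither array. Mesenchymal genes of the switch list were past 2-fold for Twist1 alone among the transcription factors, with Snai1 at -0.39, Zeb1 at 0.12 and Zeb2 at 0.97, a bound. Vim had 485 and 976 (0.74), where scramble cells had 375 and 2167 (2.50). Over the whole list 3 of 13 were higher and 2 lower, among the lower the integrin gene Itga6 (2.26-fold) and Thy1 (at least 5.33-fold). Itga6 was below 2-fold under at least 1 other setting.

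Collagens and matrix genes had 12 higher and 2 lower of 25 (median 0.97). The inhibitor of metalloproteases Timp2 had 103 and 922 (11.4-fold higher) and the proteoglycan gene Dcn 57.5 and 603 (at least 10.8-fold). Col18a1, a basement membrane collagen gene, had 3629 and 12552 (3.66-fold), the protease gene Mmp2 402 and 1518 (3.39-fold) and the fibrillin gene Fbn1 100.4 and 283 (3.07-fold). Timp1 and Bgn were lower by 2.09-fold and 2.08-fold. Col1a1 had 75.6 and 89.1 and was detected after RA alone, and Col1a2, Col3a1, Lum and Postn, which define fibroblasts, were detected on neither array. Timp1 and Bgn were below 2-fold under at least 1 other setting. Col18a1 (0.73 to 1.87) had other kept probes under 2-fold, and the range over probes is given in brackets.

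The IGF axis had 6 of 13 genes higher and 1 lower. Igf2, a fetal growth factor gene, had 3041 and 29197 (10.1-fold higher). Its clearance receptor gene Igf2r had 317 and 1455 (4.19-fold), Igf1r 103 and 256 (2.59-fold) and the binding protein gene Igfbp4 119 and 1513 (15.5-fold). Igfbp3 (0.65) and Igfbp7 (-0.30) were under 2-fold, and the protease gene Htra1 was 4.85-fold lower. Imprinted genes, which are read from 1 parental copy, had 10 higher and 1 lower of 16 (median 1.61). Besides Dlk1 and Igf2 these were H19 (1342 and 9414, 7.47-fold), Peg3 (92.2 and 1798, 30.6-fold), Mest (365 and 2268, 6.05-fold), the growth inhibitor gene Cdkn1c (990.1 and 4058, 3.93-fold), Ndn (3.86-fold), Gnas (3.19-fold), Nnat (a log2 difference of at least 1.55) and Grb10 (2.52-fold). Maternally expressed Phlda2 had 1478 and 700.4 (2.59-fold lower), and Snrpn (-0.23) and Peg10 (-0.01) were under 2-fold. Igf1r and Nnat were below 2-fold under at least 1 other setting.

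Interferon response and MHC class I genes had 11 higher and 1 lower of 25, against 6 higher and 1 lower of 22 in scramble cells. Of the 25, 10 were detected after RA alone, and these could hardly be lower. The 15 detected on both arrays had 6 higher and 1 lower (median 0.73). Ifi27 had 91.4 and 1492 and Oasl2 75.8 and 643 (25.1-fold and at least 11.6-fold higher). The guanylate-binding protein genes Gbp2 and Gbp3 had 189 and 765 and 108 and 342 (3.77-fold and 3.42-fold), while their scramble values were 0.31 and -0.02. Of antigen presentation genes, the class I light chain gene B2m had 684 and 2653 (3.66-fold), H2-T23 99.2 and 358 (4.22-fold) and the peptide transporter gene Tap2 66.1 and 230.5 (at least 3.42-fold). The factor gene Irf1 had 1037 and 2468 (2.20-fold higher) and 1064 and 748 (-0.76) in scramble cells. Ifitm1 was 3.90-fold lower. Lysosome genes had 8 higher and 0 lower of 22 (median 0.62), against 7 higher and 0 lower of 22 in scramble cells (median 0.21). Among the higher in the knockdown were Lamp2 (1254 and 4533, 3.55-fold), the hexosaminidase gene Hexa (2.56-fold) and Grn (2.21-fold, with -0.05 in scramble cells). Irf1 was below 2-fold under at least 1 other setting. Oasl2 (-0.11 to 3.54) and Irf1 (0.80 to 1.14) had other kept probes under 2-fold, and the range over probes is given in brackets.

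DNA methylation genes had 2 higher and 2 lower of 10, with the maintenance genes Dnmt1 (0.24) and Uhrf1 (-0.41) under 2-fold and the methyl-CpG binding gene Mbd1 (2.79-fold) higher. Of 13 MLL and SET1 complex genes 0 were higher and 2 lower, the shared core subunit genes Rbbp5 (342 and 235, 2.15-fold) and Dpy30 (6625 and 3046, 2.10-fold). Wdr5, another core subunit gene, was at -0.89, Ash2l at -0.31, and Kmt2b, the gene of an MLL enzyme, at 0.57 (533 and 954). Polycomb genes had 2 higher and 3 lower of 21, with Phc1 at 7233 and 1947 (3.75-fold lower), Eed at 2138 and 1066 (2.33-fold lower), the enzyme gene Ezh2 at -0.63 and Phc2 at 373 and 1101 (2.59-fold higher). Mbd1 and Rbbp5 were below 2-fold under at least 1 other setting. Mbd1 (0.35 to 1.48) and Phc1 (-2.18 to -0.43) had other kept probes under 2-fold, and the range over probes is given in brackets.

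Among A-kinase anchors and protein kinase A genes 4 of 13 were higher and 0 lower. Akap9, an anchor of the centrosome and Golgi, had 376 and 1991 (4.99-fold higher), the regulatory subunit gene Prkar1a 1298 and 3935 (2.98-fold), the catalytic subunit gene Prkacb 1953 and 5352 (2.81-fold) and the kinase inhibitor gene Pkia 156 and 453 (2.68-fold). The mitochondrial anchor gene Akap1 was at -0.84. Of 14 histone and HMG genes 1 was higher and 4 lower. The replication-linked genes H2ac8 (3.67-fold), H2bc4 (2.40-fold), H4c4 (2.34-fold) and H2ac4 (2.26-fold) were lower, and Macroh2a1, a variant of silent chromatin, had 1249 and 3882 (3.02-fold higher). Near-identical copies of histone genes can share a probe's signal. H2bc4, H4c4 and H2ac4 were below 2-fold under at least 1 other setting.

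G1 genes had 3 higher and 2 lower of 19. The D-type cyclin genes split: Ccnd2 is given above, Ccnd1 had 1701 and 765 (2.69-fold lower) and Ccnd3 4432 and 3845 (-0.19). Ccne1, of cyclin E, had 895 and 403 (3.03-fold lower), and the inhibitor gene Cdkn1a 503 and 1311 (2.24-fold higher). Mitotic genes had 0 of 18 past 2-fold in either direction, but 17 of the 18 lay below 0 (median -0.46), with Cdc20 at -0.71, Plk1 at -0.63 and Top2a at 0.28. The median over all kept genes was -0.02, a value largely held near 0 by the normalization, and that of the mitotic list in scramble cells was -0.31. Genes of the MCM helicase, replication and condensin had 1 lower of 18 (Mcm10, 2.04-fold) and 0 higher (median -0.09). Targets of p53 had 2 higher and 2 lower of 17, with Plk2 (2.12-fold) higher and the cell death gene Pmaip1 (3.17-fold) and Gdf15 (at least 2.86-fold) lower, and with Mdm2 at 0.08. Mcm10, Plk2, Pmaip1 and Gdf15 were below 2-fold under at least 1 other setting. Cdkn1a (0.97 to 1.27) had other kept probes under 2-fold, and the range over probes is given in brackets.

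Of 22 genes of the amino acid response and of threonine, serine and folate use, 13 were lower and 1 higher (median -1.14). This median was as small as -0.87 under another setting. ES cells of the mouse are known to depend on threonine, which Tdh breaks down. The serine synthesis gene Psat1 had 5174 and 1328 (4.33-fold lower) but Phgdh, of the same path, 383 and 406 (-0.28). The mitochondrial folate gene Mthfd2 had 639 and 167 (6.60-fold lower), Asns, for asparagine synthesis, 12440.3 and 3894 (3.09-fold), and Trib3 and Chac1, targets of the factor Atf4, 439.9 and 110.0 and 642 and 133 (8.11-fold and 9.17-fold). Atf4 itself was at -0.70. Vldlr was 3.71-fold higher. Amino acid transporters had 1 higher and 3 lower of 13, the arginine and lysine transporter gene Slc7a3 (3386 and 192, 27.4-fold), Slc7a7 (6.59-fold) and the leucine transporter gene Slc7a5 (4110.4 and 1394, 3.27-fold) being lower. Trib3 (-3.02 to -0.78) had other kept probes under 2-fold, and the range over probes is given in brackets.

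Glycolysis and hypoxia genes had 2 higher and 2 lower of 23 (median 0.03). The phosphofructokinase gene Pfkp had 916 and 187 (8.11-fold lower), and Vegfa, a blood vessel growth factor gene, 235 and 1122 (4.38-fold higher). Gapdh (-0.15), Ldha (-0.01) and Eno1 (0.03) lay near 0. Respiratory chain genes had 1 lower of 29, the cytochrome c gene Cycs (199.7 and 117, 3.03-fold), and 0 higher (median -0.18). In cholesterol synthesis 2 of 15 were lower and 1 higher (median -0.67, against -0.12 in scramble cells), with Nsdhl at 143 and 111 (2.08-fold lower) and Mvd at -0.98. Lipid handling genes had 2 higher and 1 lower of 14, among the higher the lipase genes Lpl (2.34-fold) and Lipa (2.48-fold). Cycs, Nsdhl and Lipa were below 2-fold under at least 1 other setting. Cycs (-1.60 to -0.62) and Nsdhl (-1.06 to -0.16) had other kept probes under 2-fold, and the range over probes is given in brackets.

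Ribosomal protein and reference genes had medians close to 0. Cytoplasmic ribosomal protein genes had 1 higher (Rpl22, 763 and 2283) and 1 lower (Rps27a, 4962 and 2271) of 30, with a median of 0.03. Reference genes had 1 higher (B2m) and 0 lower of 14, with Actb at -0.29, Ppia at -0.31 and Tbp at -0.37. Ribosome biogenesis genes, in contrast, had 6 lower and 0 higher of 22 (median -0.78), among them Rrp9 (1333 and 462, 3.78-fold), Bop1 (681 and 289, 3.47-fold) and Nop2 (1471 and 677, 2.69-fold), and Npm1 was at -0.07. Splicing genes had 2 higher and 3 lower of 26, with Hnrnpf lower (2.86-fold) and Ptbp1 at -0.23. Actin and tubulin genes had 1 higher (Pfn2, 3.12-fold) and 2 lower of 21. Chaperone genes had 0 higher and 2 lower of 21, the latter Hspb1 (4161 and 1090.2, 4.37-fold) and Hsp90aa1 (1231 and 537, 2.97-fold). Rps27a was below 2-fold under at least 1 other setting. Rps27a (-1.16 to -0.62) had other kept probes under 2-fold, and the range over probes is given in brackets.

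Set beside scramble cells, the knockdown cells had fewer large differences with RA. In scramble cells 1352 of 9520 genes were higher by at least 2-fold (14.2%) and 1118 lower (11.7%), 396 and 319 passed 4-fold, and 58 and 48 passed 16-fold. Over the 9165 genes with a value in both, 905 were higher in both and 731 lower in both, out of 1171 higher and 935 lower in the knockdown and 1331 and 1114 in scramble cells. A further 263 were higher in the knockdown with a scramble value under 2-fold, and 201 were lower. Opposite directions past 2-fold were seen in 6 genes. With 1 array per group the difference between these responses could not be tested. Among the lists with a median closer to 0 in the knockdown were core pluripotency (-3.31 and -4.74), the naive state (-2.70 and -3.28) and the Hox clusters (2.72 and 3.43, with most knockdown members being bounds and a knockdown median of 0.85 over those detected on both arrays). Among the lists with opposite signs were trophoblast (0.91 and -0.02), postmitotic neuron (-0.22 and 0.52) and endothelium and blood (-0.23 and 0.34). Over members detected on both knockdown arrays, the knockdown medians of these lists were 1.22, -1.40 and -0.80. Each list was taken over its members kept in the cells concerned, so that the members differ in part.

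**Figure D5:**
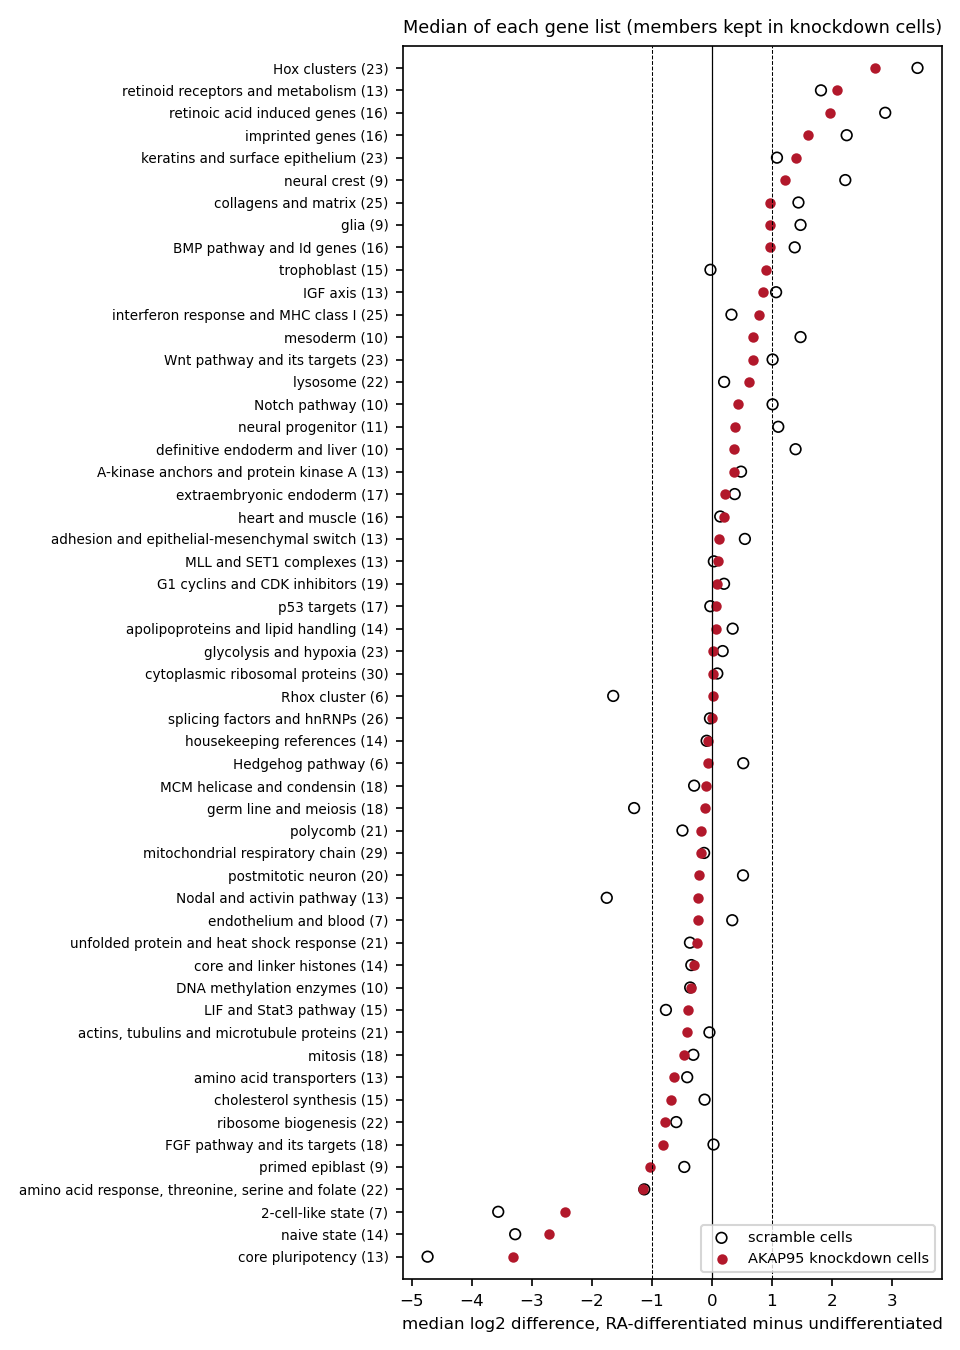
Median log2 difference, RA-treated minus undifferentiated, of each of the 54 gene lists in knockdown cells (red) and scramble cells (open), each over the members kept in those cells, with the number kept in the knockdown in brackets and dashed lines at 2-fold. Core pluripotency lies farthest to the left in both, at -3.31 and -4.74, and the Hox clusters farthest to the right, at 2.72 and 3.43.

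By chromosome, the share of kept genes higher by at least 2-fold ran from 9.93% on chromosome 10 to 16.8% on the X chromosome (55 of 327 genes), where it is 12.4% over all. The share of genes lower ran from 7.19% on chromosome 12 to a maximum of 51 of 340 genes on chromosome 13. The Y chromosome, with 4 kept genes, is left out of these ranges. The X chromosome count holds the Rhox genes and Capn6 named above.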

How the data were processed

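Per the file headers, the deposited values are an average bead signal, the linear intensity as scanned and not normalized, with a detection p-value, for each of 25697 probes on each of 4 arrays, 1 per group. The other deposited tables hold a ratio, the intensity over the median of its array, and that ratio over the undifferentiated scramble array. All 3 tables matched each other to a relative tolerance of 1e-05. Scanner software and background subtraction are not given in the sources used here.

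Background was corrected and all 4 arrays quantile-normalized following limma's neqc (limma version 3.58.1 under R 4.3.3), with negative controls inferred from the detection p-values and an offset of 16 before log2. The normalization was also run on a simulated pair, the undifferentiated knockdown array and a copy of it with known changes. Those changes were set in probes well above background. That run therefore does not show how dim genes or bounds behave, or that the normalization suits these arrays. Later steps used Python 3.11.15 and pandas 2.3.3. Symbols of the deposited annotation were brought up to date through RefSeq (23876 probes, 92.9%, matched by accession, 728 by symbol, 710 by synonym and 383 not at all). Detection at p under 0.01, reading of genes and bounds are described with the results. A size of 2-fold was the call. With 1 array a group there is no test, and the number of arrays limits the precision.

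The 54 gene lists and the members were chosen with earlier results of these data known, and no list is independent evidence of its direction. Genes named are the 30 largest increases and decreases, and kept list members chosen for their size or their role. Blvrb was named after its value was seen, as were the genes given for opposite directions. Alternatives were no background correction, an offset of 50, median scaling, normalization of the 2 knockdown arrays alone, the deposited ratios, the mean of all kept probes, a detection p under 0.05, genes detected on both arrays, and no bounds. Some genes that count in the lists are not reported here by name.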

Additional observations from a re-analysis of the deposited data

Results flagged for a closer look

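A set of 6 genes differed by at least 2-fold with RA in opposite directions in knockdown and scramble cells. The difference was not tested, as each value is 1 array against 1 array. Lower in the knockdown were the cyclin D1 gene Ccnd1 (-1.43, and 1.00 in scramble cells, from 1674 and 3406), Fez1, of axon growth (-1.61 at 327 and 172, and 1.17), and the Wnt-induced gene Sp5 (-1.03, and 1.96). Higher in the knockdown were Rbm44 (1.03 at 189.8 and 445, and -1.67), the X-linked Mageb4 (1.11 at 217 and 542, and -1.72) and Ccdc172 (1.21 at 112 and 261, and -1.06, a bound). Of these, 4 did not keep a 2-fold size in the knockdown under every setting. An offset of 50 and, separately, leaving the background uncorrected each put Ccdc172, Mageb4, Rbm44 and Sp5 below it, and so for Sp5 did median scaling and the deposited ratios. The smallest sizes over all settings were 0.80 for Ccdc172, 0.92 for Mageb4, 0.83 for Rbm44 and -0.51 for Sp5. The settings were applied to the knockdown differences alone. Scramble values were not checked in this way, and those of Ccnd1 (1.00) and Ccdc172 (-1.06, a bound) lay near the 2-fold line.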

How the results depend on the processing

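No alternative turned the direction of the 11 list medians or the 344 named genes past 2-fold. Other genes past 2-fold were not checked for direction. The counts depend on the background. Without background correction 749 genes passed 2-fold upward and 563 downward, against 1179 and 935, and 7 lists in place of 11 had a median past 2-fold. With the deposited ratios 470 genes were lower and 1144 higher, so that the higher share of these genes was 70.9% against 55.8%, and the median of all genes was 0.11 against -0.02. Over the other alternatives the counts ran from 894 to 1424 higher and from 671 to 1037 lower. Of 344 named genes past 2-fold 243 stayed past it under every alternative run, and of 11 list medians 5. A detection p under 0.05 and no bounds each kept all 344, as a bound can hardly shrink under them. Genes detected on both arrays covered 255 of the 344 and mostly reread the same values. The list medians that fell below 2-fold were those of retinoid genes, Hox clusters, primed epiblast, neural crest, keratins and the amino acid response. Medians near 0 turned sign for polycomb, splicing, ribosomal protein, p53, MLL, lipid handling and germ line genes, and over genes detected on both arrays for mesoderm (-1.54, from 0.69), neural progenitor (-0.84, from 0.38) and Hedgehog (1.73, from -0.06). Dim genes are limited by signal over background, and bounds more so. No paired analysis was possible because each group has 1 array.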
